A study of Mus musculus with 2 samples.

Results

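The 9 genes described here encode enzymes that make the building blocks of RNA and DNA: Rrm1, Rrm2, Tyms, Tk1, Cad, Umps, Dhodh, Impdh2 and Ctps. They were chosen by name, found by Ensembl gene identifier in both gene tables, and make up 9 of 43346 annotated genes, of which 21461 are protein-coding genes of the nuclear genome. All 9 were found, together with all transcripts that the annotation of the tables gives them. The cells were G1E-ER4, an immortalized mouse erythroid line in which Gata1 function is restored, here with 17beta-estradiol at 10 nM for 24 h to induce differentiation. The parent line lacks the transcription factor GATA1, and the restored protein is a fusion of GATA1 with the ligand-binding part of the estrogen receptor, so that estradiol, and not a normal developmental signal, switches GATA1 on. The labels give the strain as C57BL/6J. Total RNA was sequenced in 2 libraries, labelled biological replicates 1 and 2, and both belong to the single group. No untreated cells were analysed here, so every value is a level after estradiol and none is a response to it.

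Nucleotides reach a cell by synthesis from small precursors and by salvage of ready-made bases and nucleosides. Pyrimidine synthesis starts with CAD, passes through DHODH at the inner mitochondrial membrane and ends with UMPS, which yields UMP, while CTP synthase makes CTP from UTP. IMPDH catalyses the rate-limiting step from IMP towards GMP. Ribonucleotide reductase turns ribonucleotides into deoxyribonucleotides, and thymidylate comes either from TYMS, which methylates dUMP, or from thymidine through thymidine kinase TK1. In erythroid cells, these pathways serve progenitors that still divide while they differentiate.

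The 2 libraries held 50277914 and 47478888 expected counts, and the nuclear protein-coding genes held 14373925 and 13901316 of them. These genes took 22.7% and 22.9% of all TPM, a level per length that is scaled to the same sum in every library. All 8 erythroid markers (Gata1, Klf1, Gfi1b, Nfe2, Alas2, Epor, Tfrc and Hbb-bs) were at 1 TPM or more in both libraries, and 3 of 16 markers of other blood cells were (Pf4, Itga2b and Cpa3). Gata1 does not mark cell identity here, since the line carries an introduced GATA1 fusion whose reads were not separated. Whether the other 7 are particular to erythroid cells was not tested. The summed level of 5 granulocyte and macrophage markers was 0.33 TPM in replicate 1 and 2.19 TPM in replicate 2, with Csf1r at 0 in both. The megakaryocyte sum was 26.2 and 18.1 TPM with Vwf at 0, the mast cell sum was 27.6 and 29.1 TPM with Mcpt8 at 0, and the lymphoid sum was 0.08 and 0.67 TPM with Cd3e and Ncr1 at 0. Their part in the levels below was not tested. In bulk RNA, fewer cells that express a gene and less RNA per cell cannot be told apart.

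All 9 enzyme genes were detected, with detection set at 1 TPM in both libraries, a rule that 40.2% of nuclear protein-coding genes passed. Their median level was 26.9 TPM, beside 9.76 TPM over the detected protein-coding genes and 0.025 TPM over all of them. The highest was Rrm2, 14.6-fold above the lowest, Dhodh, on mean TPM. The order ran Rrm2, Rrm1, Impdh2, Tyms, Cad, Tk1, Umps, Ctps, Dhodh. Of the 8 pairs of neighbours in that order, 6 had ranges over the libraries that did not overlap and 2 had ranges that did, Cad with Tk1 and Umps with Ctps. Expected counts ran from 273 for Dhodh in replicate 1 to 8442 for Rrm1 in replicate 1, and the deposited posterior SD of the gene count was 0 in both libraries for 7 of the 9 genes. The other two were Tk1, at 0.36 and 0.4 counts, and Impdh2, at 6.68 and 8.12 counts. The share of all genes with an SD of 0 was not worked out. This gene-level SD covers neither counting error nor the split among models. For the leading Dhodh model, for example, the SD was 21.68 and 16.61 counts.

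**Figure D1:**
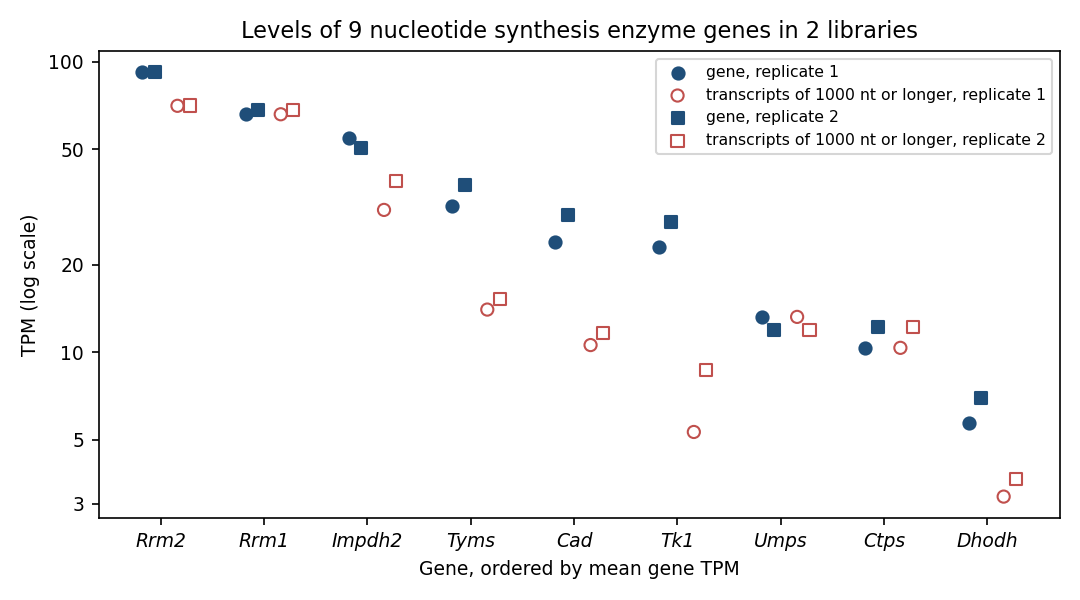
Level of each of the 9 enzyme genes in each library, in TPM on a log scale. Filled symbols are gene TPM and open symbols are TPM summed over transcripts of 1000 nt or longer, with circles for replicate 1 and squares for replicate 2. The filled and open symbols stand side by side at the same height for Rrm1 and Umps and nearly so for Ctps. They differ widely in height for Tk1, at 25.5 against 6.99 TPM on average, and for Tyms and Cad.

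The 2 subunits of ribonucleotide reductase were the highest of the 9. Rrm1 encodes the large catalytic subunit and lies at chr7:102441695-102469771 on the plus strand (GRCm38, as are all positions below; gene ENSMUSG00000030978.9). Rrm1 measured 66.01 TPM in replicate 1 and 68.21 TPM in replicate 2, or 67.11 ± 1.56 TPM (SD, n = 2), from 8442 and 8283 expected counts. This put Rrm1 above 97.4% of nuclear protein-coding genes and above 93.6% of the detected ones. Rrm2 encodes the small subunit, which carries the tyrosyl radical and is known for its rise in S phase, and lies at chr12:24708241-24714146 on the plus strand (ENSMUSG00000020649.7). It measured 92.29 and 92.32 TPM, or 92.31 ± 0.021 TPM (SD, n = 2), from 5311 and 5030 counts, above 95.8% of detected genes. The libraries nearly coincided for both subunits.

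Rrm1 stood below Rrm2 on gene TPM in both libraries, with a ratio of 0.727 ± 0.017 (SD, n = 2). Rrm1 nevertheless had 1.62 times the expected counts of Rrm2, because its single transcript of 3997 nt is longer than the 2193 nt of the leading transcript of Rrm2. That single transcript, Rrm1-201, held all of the Rrm1 count. Rrm2-201 held 76.49% and 76.62% of the gene's TPM and 90.9% and 91.3% of its counts. The shorter coding model Rrm2-203, of 781 nt, held 7.85% and 12.49% of the TPM from 158.2 and 237.88 counts. Over transcripts of 1000 nt or longer, the ratio of Rrm1 to Rrm2 was 0.95 ± 0.021 (SD, n = 2), so the gap between the subunits was small on that measure. The alternative small subunit Rrm2b, a p53 target that supplies deoxynucleotides outside S phase, measured 5.03 and 3.67 TPM. Rrm2 exceeded it 18.3-fold and 25.2-fold on TPM, and 15.0-fold and 14.5-fold on counts.

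The bases just before the start sites of the 2 subunit genes are shown because both hold the same pair of motifs. The RefSeq table for build GRCm38.p6 gave a start for 8 of the 9 genes. Bases that lie in an annotated exon were left out, capitals mark CCAAT and TCCCGC, and both are printed 5′ to 3′ on the plus strand, chr7:102441595-102441694 for Rrm1 and chr12:24708154-24708240 for Rrm2.
Rrm1: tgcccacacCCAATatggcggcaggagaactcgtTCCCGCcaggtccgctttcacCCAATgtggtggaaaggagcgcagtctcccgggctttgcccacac
Rrm2: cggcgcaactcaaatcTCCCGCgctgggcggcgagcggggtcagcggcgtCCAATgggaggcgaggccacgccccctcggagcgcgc
In Rrm1 the CCAAT copies begin 91 and 45 bases before the RefSeq start and TCCCGC begins 66 bases before it. In Rrm2 CCAAT begins 50 bases and TCCCGC 84 bases before the RefSeq start.

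Across the 250 bases before each start, CCAAT occurred for Rrm1 and Rrm2 only among the 8 genes with an entry, on either strand, and in 33.8% of 32851 promoters of the same length. A core of the E2F motif, TCCCGC or TGGCGC, occurred for 6 of the 8 (Rrm1, Rrm2, Tk1, Cad, Umps and Ctps) and in 23.4% of promoters. Ctps had 2 start entries and so a longer stretch searched than the others. The longer forms TTTCCCGC, TTTCGCGC, TTTGCCGC and TTTGGCGC, of which the first and last contain a core, occurred for 0 of the 8 and in 1.86% of promoters. CACGTG, an E-box bound by MYC among other factors, occurred for Tyms and Impdh2 and in 6.02% of promoters. AGATAA or TGATAA, letters that GATA factors bind, occurred for Umps alone of the 8, 197 bases before its start, and in 16.6% of promoters. Exon bases were not left out of these 250-base windows. The Tk1 core begins 72 bases before a RefSeq start at 117826014, inside the annotated gene, which reaches to 117826092. The Impdh2 E-box begins 110 bases before a RefSeq start at 108560436, inside the annotated gene, which starts at 108560286. The motif letters were chosen after the sequences had been looked at, and a match describes letters in this window and no binding.

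Thymidylate synthase, the target of fluorouracil, is encoded by Tyms at chr5:30058202-30073617 on the minus strand (ENSMUSG00000025747.8). Tyms measured 31.87 and 37.8 TPM, or 34.84 ± 4.19 TPM (SD, n = 2), from 1787 and 1919 counts, above 86.0% of detected genes. Much of this TPM lay on short non-coding models. The leading model by mean share was Tyms-202, a transcript of 816 nt that the later annotation GENCODE M21 types as a retained intron, with 34.76% and 25.49% of the TPM. The full coding transcript Tyms-201, of 3163 nt, held 27.31% and 20.31% of the TPM but 48.9% and 38.1% of the counts. Among the other models, Tyms-205 and Tyms-204, both typed as targets of nonsense-mediated decay, held 15.12% and 19.77%, and 9.22% and 12.54%. For Tyms-205 the type comes from a shorter M21 model, of 618 nt against 797 nt in the tables, and may not describe the model quantified. The processed transcript Tyms-203 held 6.15% and 14.5%. Over transcripts of 1000 nt or longer Tyms measured 14.02 and 15.22 TPM.

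Tyms-202 shares 577 of its 816 bases, 70.7%, with the exons of Tyms-201. Its other 239 bases, at chr5:30063846-30064084, run on from exon 4 into the intron. The edge is printed 5′ to 3′ along the gene to show where the model leaves the coding transcript, with exon bases in lower case and intron bases in capitals.
Tyms-202, end of exon 4: aacccaaaagGTGGACAGCATCCCAGTCAT

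Thymidine kinase 1, the cytosolic salvage enzyme long used as a mark of proliferating cells, is encoded by Tk1 at chr11:117815526-117826092 on the minus strand (ENSMUSG00000025574.9). Tk1 measured 23.02 and 28.02 TPM, or 25.52 ± 3.54 TPM (SD, n = 2), from 606 and 767.92 counts, above 79.8% of detected genes. The retained-intron model Tk1-203, of 724 nt, held 61.24% and 56.54% of the TPM, and the coding transcript Tk1-201, of 1440 nt, held 21.91% and 26.94%. On expected counts the models were closer, with 281.21 and 298.48 for Tk1-203 beside 219.69 and 311.58 for Tk1-201. All 6 retained-intron models together held 63.7% and 59.4% of the Tk1 counts. Over transcripts of 1000 nt or longer Tk1 measured 5.31 and 8.67 TPM, or 6.99 ± 2.38 TPM (SD, n = 2), which lies below Umps, Ctps and Cad on the same measure. A predicted gene on the opposite strand, Gm20708, spans the whole of Tk1 (10567 bases) and had 43.35 and 68.34 counts. Afmid, also opposite, overlaps Tk1 by 169 bases and had 71.31 and 94.94 counts. Whether counting used strand is not given in the sources used here, and if it did not, reads of Tk1 and of these genes cannot be told apart where they overlap.

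Tk1-203 has 2 exons, against 7 in Tk1-201, and shares 636 of its 724 bases, 87.8%, with Tk1-201. The other 88 bases, at chr11:117816567-117816654, are the end of the intron before exon 6. The edge is printed in the same way, with intron bases in capitals and exon bases in lower case. It borders the only bases of the leading Tk1 model that the coding one lacks.
Tk1-203, start of exon 6: ACCTGCTGTCTTCCGTGCAGgctttcggca

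Tyms exceeded Tk1 on TPM by 1.38-fold and 1.35-fold in the libraries, and on transcripts of 1000 nt or longer by 2.64-fold and 1.76-fold. On counts the ratios were 2.95 and 2.5. The mitochondrial kinase Tk2 measured 10.71 and 9.39 TPM. Tk1 was 2.57 ± 0.59 times Tk2 (SD, n = 2) on gene TPM, but 0.71 ± 0.30 times Tk2 over transcripts of 1000 nt or longer and 0.949 ± 0.28 times Tk2 on counts, so which of the 2 kinases was higher turned on the measure.

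The 3 enzymes of UMP synthesis spanned a wide range of levels. Cad, at chr5:31054780-31078479 on the plus strand (ENSMUSG00000013629.12), encodes the protein that carries the first 3 activities of the pathway. Cad measured 24.01 and 29.77 TPM, or 26.89 ± 4.07 TPM (SD, n = 2), from 2663 and 2824 counts, above 80.9% of detected genes. Its coding transcript Cad-201, of 7137 nt, held 91.7% and 90.1% of the counts but 43.95% and 38.87% of the TPM. The reverse held for ENSMUST00000155001, a model of 582 nt without an entry in GENCODE M21, which held 5.87% and 7.21% of the counts but 42.69% and 47.54% of the TPM. It led Cad on mean share, while Cad-201 led in replicate 1. TPM divides counts by effective length, so the 156.45 and 203.69 counts of this short model weighed about as much as the 2441.67 and 2544.6 counts of the coding transcript. Over transcripts of 1000 nt or longer Cad measured 10.58 and 11.62 TPM.

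Dhodh encodes dihydroorotate dehydrogenase, which feeds electrons into the respiratory chain, and lies at chr8:109591343-109608673 on the minus strand (ENSMUSG00000031730.13). It was the lowest of the 9 in both libraries, at 5.7 and 6.96 TPM, or 6.33 ± 0.89 TPM (SD, n = 2). The counts were 273 (exact Poisson 95% interval 241.6 to 307.4) and 335 (300.1 to 372.9), which cover counting error only. Dhodh stood above 74.0% of nuclear protein-coding genes but above only 35.3% of the detected ones. Its leading model, ENSMUST00000069058 of 2318 nt, also lacks an entry in GENCODE M21 and held 35.16% and 34.12% of the TPM and 53.2% and 48.7% of the counts. The retained-intron models Dhodh-202 and Dhodh-206 held 14.54% and 18.15%, and 12.04% and 9.59%, of the TPM. With 12 models and few counts, the split of Dhodh among them rests on small numbers, such as 10.13 and 14.53 counts for Dhodh-202.

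Umps, at chr16:33954782-33967038 on the minus strand (ENSMUSG00000022814.6), encodes the bifunctional enzyme of the last steps to UMP. Umps measured 13.23 and 11.93 TPM, or 12.58 ± 0.92 TPM (SD, n = 2), from 1422 and 1239 counts, above 58.7% of detected genes. All of it lay on 2 long models, so that its level did not move when short models were left out. How the 2 models shared it differed between the libraries. The coding transcript Umps-201 took 699.18 counts in replicate 1 and 959 in replicate 2, and Umps-202, typed as a target of nonsense-mediated decay, took 722.82 and 280 counts. The deposited posterior SD of these counts was 48.03 in replicate 1 and 47.51 in replicate 2, which is smaller than the change of either model between the libraries. As shares of TPM, Umps-202 held 52.37% and 23.7%. With 1 library on each side, no test of this shift was possible.

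The models of Umps differ mainly in 1 exon: Umps-202 skips exon 2 of Umps-201, chr16:33963772-33963925, whose 154 nt are not a multiple of 3. The junctions that tell them apart are printed 5′ to 3′ along the gene, with the end of exon 1 in lower case and the exon that follows it in capitals.
Umps-201: cgtcttctcagtcagGTCGCAGACATTTTA
Umps-202: cgtcttctcagtcagGTACCAAGCGCCTTG
All 3283 bases of Umps-202 lie in exons of Umps-201, so mainly reads over these junctions or inside exon 2 tell the models apart. Within the pathway, Cad was 4.24 ± 0.05 times Dhodh (SD, n = 2) on gene TPM, 3.25 ± 0.11 times over transcripts of 1000 nt or longer and 9.09 ± 0.94 times on counts, which are not divided by length. Cad was 2.16 ± 0.48 times Umps on gene TPM and 2.08 ± 0.29 times on counts, but 0.887 ± 0.12 times Umps over the longer transcripts (SD, n = 2). On TPM, whether Cad or Umps was higher thus turned on the short Cad models.

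CTP synthase 1, encoded by Ctps at chr4:120539868-120570276 on the minus strand (ENSMUSG00000028633.7), is known for its need in proliferating lymphocytes. Ctps measured 10.35 and 12.21 TPM, or 11.28 ± 1.31 TPM (SD, n = 2), from 883 and 986 counts, above 54.9% of detected genes. The coding transcript Ctps-201, of 2705 nt, held 100% and 99.66% of this. Its paralog Ctps2 measured 10.22 and 6.54 TPM. The 2 synthases were level in replicate 1, at a Ctps to Ctps2 ratio of 1.01, and apart in replicate 2, at 1.87. Over transcripts of 1000 nt or longer Ctps was 2.58-fold and 2.2-fold above Ctps2, and on counts 1.81-fold and 2.17-fold.

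Impdh2, the type 2 IMP dehydrogenase that mycophenolic acid inhibits, lies at chr9:108560286-108565584 on the plus strand (ENSMUSG00000062867.9). Impdh2 measured 54.82 and 50.49 TPM, or 52.66 ± 3.06 TPM (SD, n = 2), from 2337.5 and 2349.31 counts, above 91.6% of detected genes. Its counts were thus nearly equal in the libraries, while their split among models was not. The full transcript Impdh2-201 held 56.38% and 77.2% of the TPM, the shorter coding model Impdh2-202 held 17.74% and 4.95%, and Impdh2-207 held 13.21% and 7.47%. Impdh2-202, of 840 nt and 6 exons, covers only part of Impdh2-201, of 1858 nt and 14 exons. Within that part it skips exon 4 of Impdh2-201, whose 75 nt are a multiple of 3. Gene TPM was lower in replicate 2, but TPM over transcripts of 1000 nt or longer was higher there, at 38.98 against 30.91 TPM. The type 1 enzyme Impdh1 measured 1.09 and 0.89 TPM from 55 and 51 counts and did not reach the detection level in both libraries. Impdh2 exceeded it 50.3-fold and 56.7-fold on TPM and 42.5-fold and 46.1-fold on counts, the widest ratio of the 10 gene pairs compared. Impdh2 overlaps Ndufaf3 on the opposite strand by 48 bases. Of the genes described above, Rrm1 overlaps Gm45399 on the same strand by 1016 bases, and Gm45399 has no count here. Umps overlaps Gm15829 on the opposite strand by 800 bases, and Gm15829 had 0 counts in both libraries.

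Short models carried more than 50% of gene TPM in both libraries for 3 of the 9 genes, Tk1, Tyms and Cad, where short means under 1000 nt. The same was true of 14.7% of detected protein-coding genes. The short share of TPM was 76.9% and 69.1% for Tk1, 56.0% and 59.7% for Tyms, 55.9% and 61.0% for Cad, 44.2% and 47.3% for Dhodh, 43.6% and 22.8% for Impdh2 and 23.5% and 23.4% for Rrm2. It was 0% for Rrm1 and Umps and at most 0.328% for Ctps, beside a median of 8.07% over detected genes. On counts the short share was far smaller for Cad (8.22% and 9.53%) and Tyms (22.2% and 24.0%), and stayed high for Tk1 (60.3% and 48.6%). By mean share of TPM, the leading model was typed protein-coding for 5 of the 9 genes and lacked a type for 2, Cad and Dhodh. Of the 7 with a type, 2 had a leading model of another type, Tk1 and Tyms, as had 11.0% of detected genes with a typed leading model. On counts, the leading model was protein-coding for 7 of the 9, and the share of detected genes on counts was not worked out. The models share exons, so these splits are estimates.

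**Figure D2:**
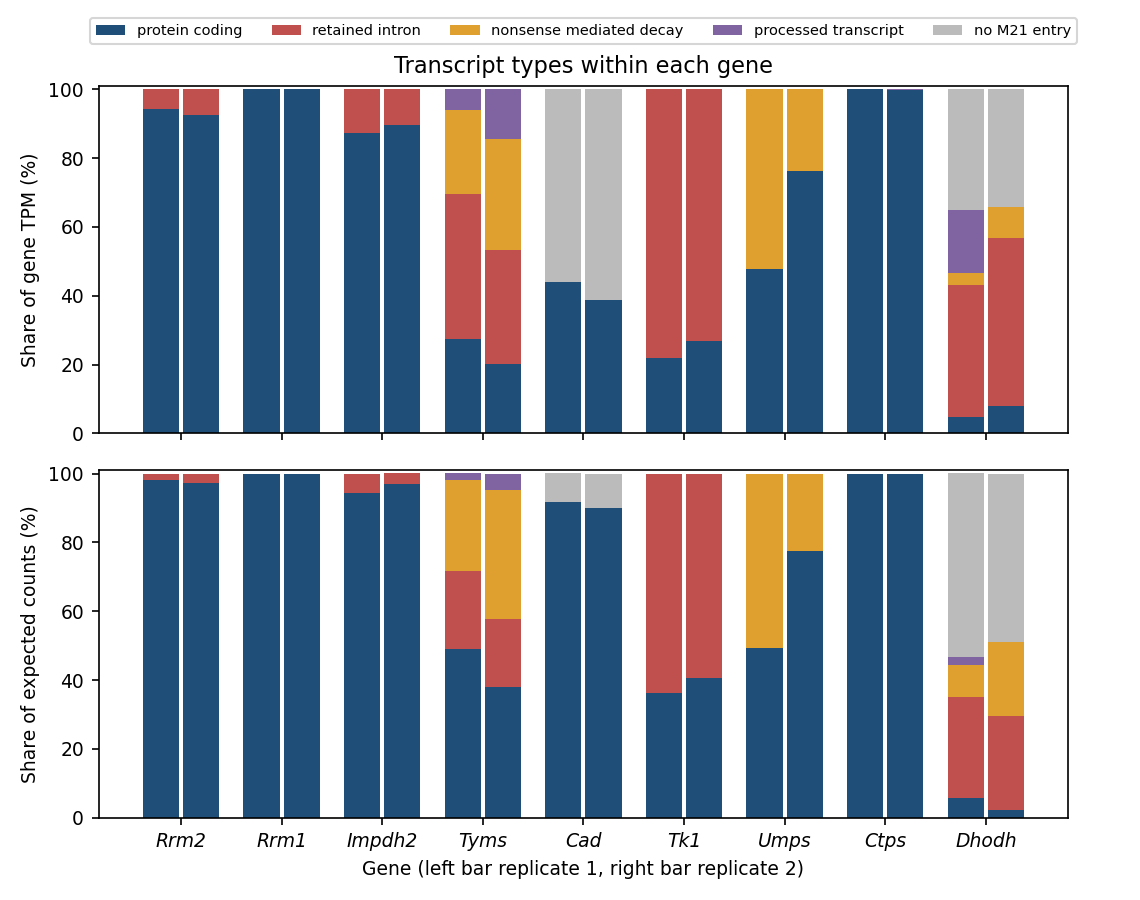
Share of each gene held by each type of transcript model, in percent of gene TPM (upper panel) and in percent of expected counts (lower panel). The left bar of each pair is replicate 1 and the right bar replicate 2, and grey marks models without an entry in GENCODE M21. Cad changes most between the panels, with its coding transcript at 43.95% and 38.87% of TPM but 91.7% and 90.1% of counts.

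The libraries are replicates, so their ratio measures spread and no effect. On TPM, replicate 2 lay above replicate 1 for 7 genes and below it for Umps and Impdh2. The 7 include Rrm2, whose libraries differed only in the second decimal, at 92.29 and 92.32 TPM. On the scaled counts below, the genes lower in replicate 2 were Umps and Rrm2. The share of detected genes higher in replicate 2 was not worked out. Ratios on TPM were taken as log2 of TPM + 0.1. In none of the 9 did the higher library exceed the lower by 25% or more, a gap that 22.3% of detected protein-coding genes reached. The widest were Cad at 1.24-fold and Tk1 and Dhodh at 1.22-fold, just inside that limit. The median log2 ratio of replicate 2 to replicate 1 was 0.236 for the 9 genes and 0.027 over detected genes on TPM, and 0.129 and -0.002 on expected counts scaled by the trimmed mean of M-values (TMM). Each scaled ratio was given a 95% interval for counting error alone. This interval left out equality for 6 of the 9 genes and for 45.2% of detected genes. The 6 were Tk1 at a log2 ratio of 0.39 (0.23 to 0.54), Dhodh at 0.34 (0.11 to 0.57), Ctps at 0.20 (0.07 to 0.34), Tyms at 0.15 (0.05 to 0.24), Cad at 0.13 (0.05 to 0.21) and Umps at -0.15 (-0.27 to -0.04). For Rrm1 at 0.02 (-0.03 to 0.06), Rrm2 at -0.03 (-0.09 to 0.02) and Impdh2 at 0.05 (-0.03 to 0.13) the libraries could not be told apart at this depth. Tk1 and Dhodh passed the 25% limit on scaled counts. The share of detected genes past it on scaled counts was not worked out, and the 22.3% above holds for TPM only.

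**Figure D3:**
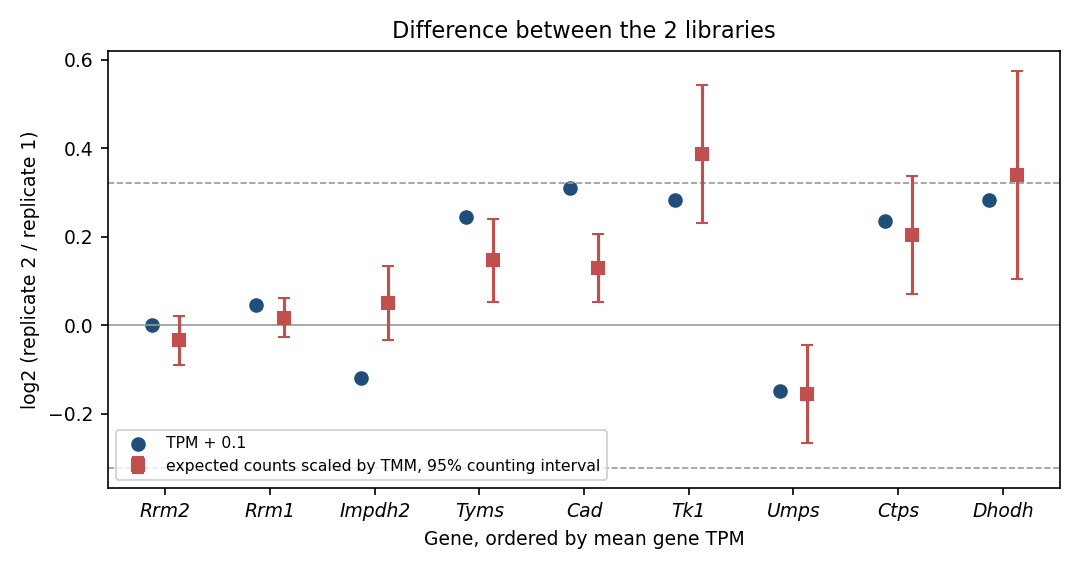
Log2 ratio of replicate 2 to replicate 1 for each of the 9 genes. Circles use TPM + 0.1, squares use expected counts scaled by TMM with 95% counting intervals, and dashed lines mark a gap of 25%. Every circle lies inside the dashed lines, and the squares of Tk1 and Dhodh lie just outside them.

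Around these enzymes, 38 of 42 measured genes of nucleotide metabolism were detected, at a median of 17.5 TPM. The purine ring enzymes were all detected (8 of 8, median 22.1 TPM), from Prps2, which makes the ribose donor, at 13.84 TPM to the bifunctional Paics at 211 TPM, the highest of all 51 genes. The 2 PRPP synthetases were close, with Prps1 at 1.23 ± 0.09 times Prps2 (SD, n = 2) on TPM and 0.596 ± 0.003 times on counts. In the AMP and GMP branches 2 of 4 genes were detected, led by Adss, which commits IMP to AMP, at 27.02 TPM. The muscle form Adssl1 had 0 and 2 counts. Pyrimidine nucleotide kinases and CTP synthesis had 4 of 4 detected (median 9.82 TPM), from Cmpk1 at 7.54 TPM to Nme1 at 18.44 TPM. Deoxynucleotide supply and control had 7 of 7 (median 17.9 TPM), from Rrm2b at 4.35 TPM to thymidylate kinase Dtymk at 93.01 TPM, beside Rrm2 in level.

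Folate one-carbon metabolism, which provides the methyl and formyl groups, had 6 of 6 genes detected (median 19.2 TPM), led by the mitochondrial Shmt2 at 88.92 TPM. Salvage had 9 of 11 (median 10.1 TPM). Highest on mean gene TPM were uridine-cytidine kinase Uck2, at 98.89 and 97.62 TPM, and adenosine kinase Adk, at 92.05 and 102.01 TPM, whose ranges overlapped. Over transcripts of 1000 nt or longer Adk stood above Uck2, at 97.03 against 39.7 TPM on average. The 2 salvage genes not detected were the deaminases. For Ada, adenosine deaminase, the counts were 14 and 0, and for Cda, cytidine deaminase, they were 0 and 2. Of the nucleoside transporters, Slc29a1 measured 30.16 TPM and Slc29a2 1.28 TPM. Among the 51 genes ranked together on mean gene TPM, Rrm2 took place 5, Rrm1 place 7, Impdh2 place 10, Tyms place 13 and Cad place 18. Tk1 took place 20, Umps place 32, Ctps place 34 and Dhodh place 42. Over transcripts of 1000 nt or longer, Tyms averaged 14.62, Cad 11.1 and Tk1 6.99 TPM, and places on that measure were not worked out.

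**Figure D4:**
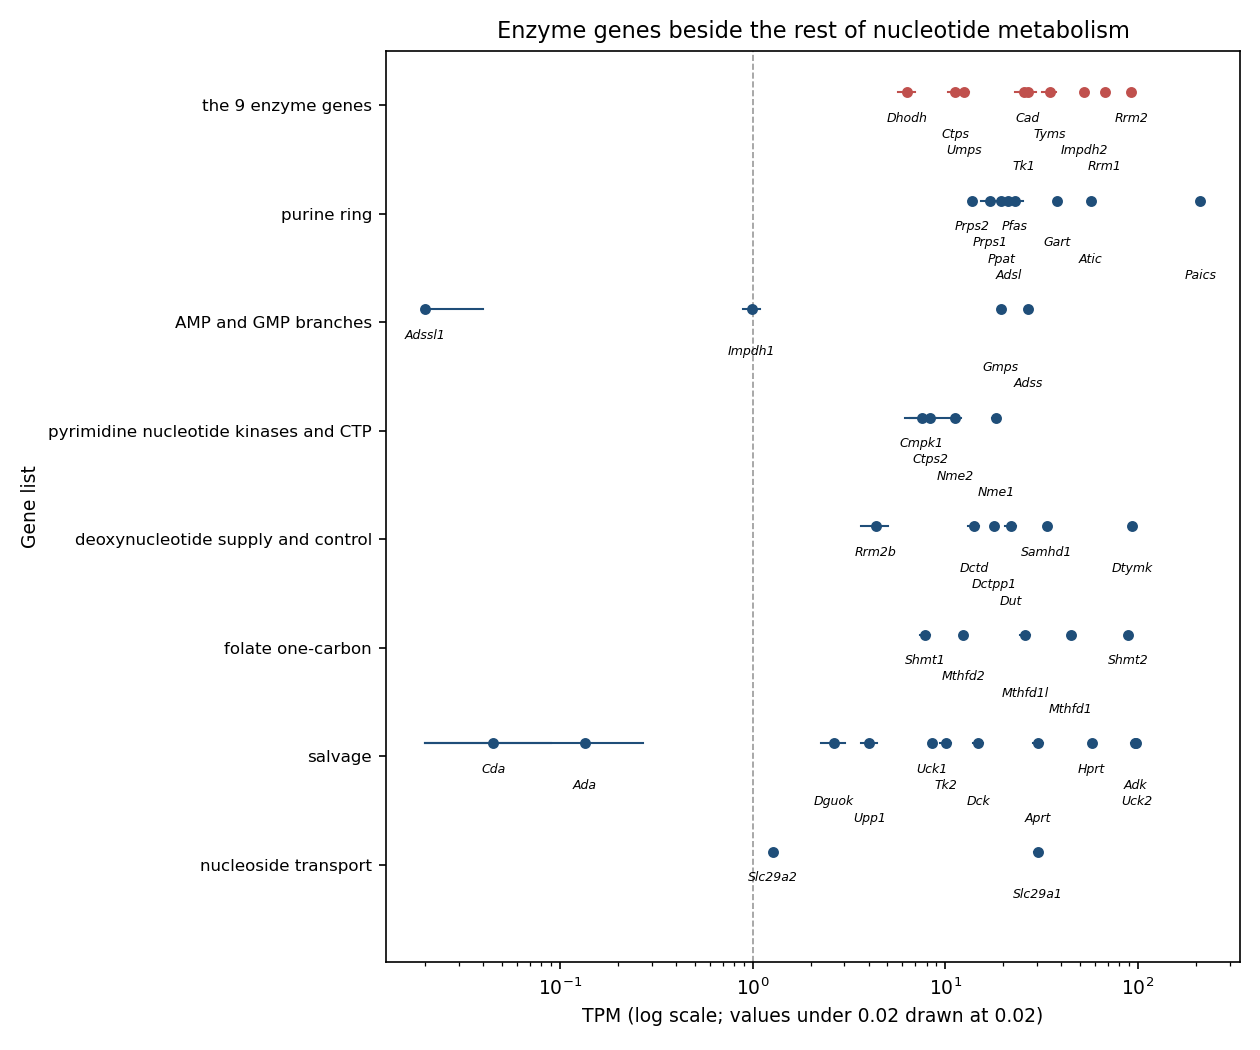
Mean level of the 9 enzyme genes (red) and of further genes of nucleotide metabolism (blue) by list, in TPM on a log scale, with a line from one library to the other. The dashed line marks 1 TPM. The 4 genes with a library below it are Adssl1, Impdh1, Cda and Ada, and all 9 enzyme genes lie above 5 TPM in both libraries.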

How the data were processed

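Total RNA of 2 libraries of 1 group was analysed from gene and transcript tables. Reads were set against mm10, per the labels, with GENCODE M4 annotation and separate signal for plus and minus strand, per the file headers. Columns carry RSEM's names. Aligner, quantifier version and strand setting of counting: not given in the sources used here. Deposited expected counts estimate the reads of each gene or transcript, without normalization. The authors scaled TPM by effective length and to a fixed sum that includes spike-ins, and FPKM by length and depth. A deposited percent is the fraction of a gene's TPM on 1 transcript.

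Symbols, types and positions came from GENCODE M21 by identifier without version. Replicates are given as mean ± SD. There was 1 group, so no test between groups was made. Expected counts, rounded to whole numbers, were scaled with edgeR 4.0.16 (TMM) over 10181 genes with at least 10 counts in all, or with DESeq2 1.42.0 size factors. Counts carry exact Poisson intervals, and ratios carry exact conditional binomial intervals from SciPy 1.17.1. Both cover counting error only. The scaling and the intervals were tested on simulated data. The text names all 9 genes, both genes of each pair, the highest, the lowest and the undetected genes of each list, and each leading transcript with any other at 10% or more. The genes and lists were chosen with earlier results of these data known. Chosen after seeing the data were the sum over transcripts of 1000 nt or longer, the counts of short and of untyped leading models, the counting intervals of ratios and the motif letters. Pnp was listed but is not analysed here, and some listed genes that enter the counts are not reported by name or drawn.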

Additional observations from a re-analysis of the deposited data

How the results depend on the processing

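The median level of the 9 genes was 26.9 TPM. It was 17.7 on FPKM, 118 when TPM was rescaled over nuclear protein-coding genes, 12.6 over transcripts of 1000 nt or longer, and 24.0 to 29.8 in a single library. All 9 were detected at 0.5 and 5 TPM and in either library alone. The share of all nuclear protein-coding genes was worked out only for 1 TPM in both libraries, where it was 40.2%. No gene was 25% apart between the libraries on TPM, but 2 were on counts scaled by TMM and 2 by DESeq2 (Tk1 and Dhodh), and 2 over the longer transcripts (Tk1 at a log2 ratio of 0.70 and Impdh2, whose direction reversed to 0.33). On TPM, the share of protein-coding genes 25% apart was 22.3% of detected ones and 33.0% of those with any count. It was not worked out on scaled counts or over the longer transcripts. Of the 10 pairs, 9 had a mean ratio above 1 on TPM, on FPKM and in either library alone, 8 on counts and 7 over the longer transcripts. On counts, Tk1/Tk2 (0.949), Prps1/Prps2 (0.596) and Rrm1/Rrm2 (1.62) changed sides, and over the longer transcripts Tk1/Tk2 (0.71) and Cad/Umps (0.887) did. The longer-transcript values differ by construction through the models left out, and the count ratios through length. For the other changes the cause was not tested. Of the 42 pathway genes 38 were detected, 39 at 0.5 TPM, 33 at 5 TPM, and 38 to 39 in a single library. The leading model was protein-coding for 5 genes on mean TPM share, for 7 on counts and for 5 in either library alone. Cad-201 and Umps-202 led their genes in replicate 1. Over detected genes, the type of the leading model was worked out only on mean TPM share. No paired analysis was possible because there is 1 group. Depth was least for Dhodh.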
